A study of Mus musculus with 12 samples.

Results

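The CCN genes encode secreted proteins of the extracellular matrix that carry signals to cells rather than build the scaffold. *Cyr61*, *Ctgf*, *Nov*, *Wisp1* and *Wisp2* were chosen by name, and each matched 1 of the 27998 gene rows in the deposited count tables, so 5 of 27998 genes are described here across the cell types, fibroblast subsets and libraries of the mouse joint. The counts came from single-cell RNA sequencing of live stromal cells (CD45-, which leaves out blood-derived cells) sorted from digested hind limb joints of wild-type C57BL/6 male mice aged 8 to 10 weeks. The 12 libraries carried 4 stage labels with 3 replicates each, every one a pool of the joints of 3 animals. Libraries labelled rest stand for animals taken on day 0, and whether these had been given serum is not stated. The other labels stand for animals taken on days 7 to 9 (peak), on day 15 (resolving) or on day 22 (resolved). Those animals had received 100 μl of K/BxN serum intravenously, which transfers a self-limited arthritis (serum transfer-induced arthritis). Bones with intact joints were digested, so the libraries hold several stromal cell types and not synovium alone.

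CCN proteins share a modular build and act by binding integrins, heparan sulfate proteoglycans and growth factors near the cell surface. *Cyr61* and *Ctgf* are well-known targets of the YAP and TAZ coactivators and their TEAD partners, which respond to mechanical load and cell shape, and *Ctgf* is also induced by TGF-beta and is needed for normal cartilage and bone growth. *Nov* often counters growth, *Wisp1* was found as a gene induced by Wnt signalling and is known in bone formation, and *Wisp2* lacks the C-terminal module of its relatives. In joints the family is known for roles in cartilage, bone and synovial fibroblasts.

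On GRCm38, *Cyr61* (ENSMUSG00000028195, annotated as Ccn1) lies on chromosome 3 from 145646976 to 145649981 on the minus strand. *Ctgf* (ENSMUSG00000019997, Ccn2) lies on chromosome 10 from 24595442 to 24598683 on the plus strand, where a processed transcript on the other strand, Gm15270, overlaps it. *Nov* (ENSMUSG00000037362, Ccn3, 54745702 to 54754039) and *Wisp1* (ENSMUSG00000005124, Ccn4, 66891320 to 66923201) both lie on the plus strand of chromosome 15. *Wisp2* (ENSMUSG00000027656, Ccn5) lies on the plus strand of chromosome 2 from 163820861 to 163833146. All 5 are protein-coding genes. The 250 bases before the start of *Cyr61* are shown because it was the member called higher in most cell types and is a textbook TEAD target. They span chr3:145649986-145650235 (GRCm38.p6, RefSeq), read on the minus strand, with capitals marking 1 match to the TEAD core GGAATG on the opposite strand (read here as CATTCC, 103 to 98 bases before the start) and 1 TATAAA (25 to 20 bases before it).

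Cyr61 upstream: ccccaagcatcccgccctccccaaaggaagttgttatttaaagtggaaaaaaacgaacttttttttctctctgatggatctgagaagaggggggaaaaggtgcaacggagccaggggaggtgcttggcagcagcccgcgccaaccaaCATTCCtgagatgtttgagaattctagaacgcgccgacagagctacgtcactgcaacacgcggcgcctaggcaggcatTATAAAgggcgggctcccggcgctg

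Among 32817 RefSeq promoter windows of this length, 12.6% held GGAATG on either strand and 7.60% held TATAAA on the gene's strand. AP-1 sites (TGANTCA, in 6.75% of windows) and cAMP response elements (TGACGTCA, in 1.55%), both searched on 2 strands, had no match in the *Cyr61* window. The TEAD and TATAAA matches do not overlap, and a match is a description of letters only.

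Of 21042 deposited cells, 20060 passed limits on genes and UMIs (unique molecular identifiers, each counting 1 captured transcript), with 1227 to 2747 cells and 7468914 to 16566202 UMIs per library. The median UMIs per deposited cell was 5358 in each of them, and none of the 21042 barcode sequences occurred in more than 1 library. Clustering without the CCN genes gave 27 clusters, of which 10 were fibroblasts (11271 cells, with all 7 fibroblast markers present) and others were named by markers as tenocyte-like (3189 cells), vascular endothelial-like (1768), osteoblast-like (1358), perivascular-like (655), proliferating (638), chondrocyte-like (314), muscle-like (266), lymphatic endothelial-like (186), immune-like (112) and Schwann-like (84). *Scx* in tenocyte-like, *Vwf* in vascular endothelial-like, and *Ifitm5* and *Smpd3* in osteoblast-like cells were below 20% of cells. The tenocyte-like clusters also held fibroblast markers, at a summed 18899 to 65641 CPM (UMI counts scaled to a common library sum) against 17705 to 70069 CPM in fibroblasts. The stage labels need care: barcodes carry a suffix from 1 to 12, and in fibroblasts all 12 libraries were most like a library from their own run of 3 suffixes (1 to 3, 4 to 6, 7 to 9 or 10 to 12), and 0 were most like one sharing their stage label. Each suffix run holds 3 different labels. Sums over a cell type in a library were tested in edgeR (quasi-likelihood test, library as a block), and a gene was called at a Benjamini-Hochberg adjusted p under 0.05 with a log2 fold change over 0.5 either way.

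Each CCN gene had its own distribution over the joint. Of 40 comparisons of a member in a cell type with fibroblasts, 35 were called, 11 higher and 24 lower. *Cyr61* was called higher than in fibroblasts in 6 of 8 types, *Wisp1* in 4 and *Ctgf* in 1, while *Nov* was called lower in all 8 and *Wisp2* in 7. All 5 members were called in chondrocyte-like cells, where 49% of 9095 genes tested were called, and in vascular endothelial-like cells, where 54.3% were. The count was 5 of 5 also in osteoblast-like cells (background 29.5%) and lymphatic endothelial-like cells (40.2%). Muscle-like cells had 4 of 5 members called (40.2% of all genes), as did proliferating cells (27.2%) and tenocyte-like cells (14.9%), and perivascular-like cells had 3 of 5 (41.8%). The background ran from 14.9% of genes in tenocyte-like to 54.3% in vascular endothelial-like cells, and no test set the members against other genes.

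**Figure D1:**
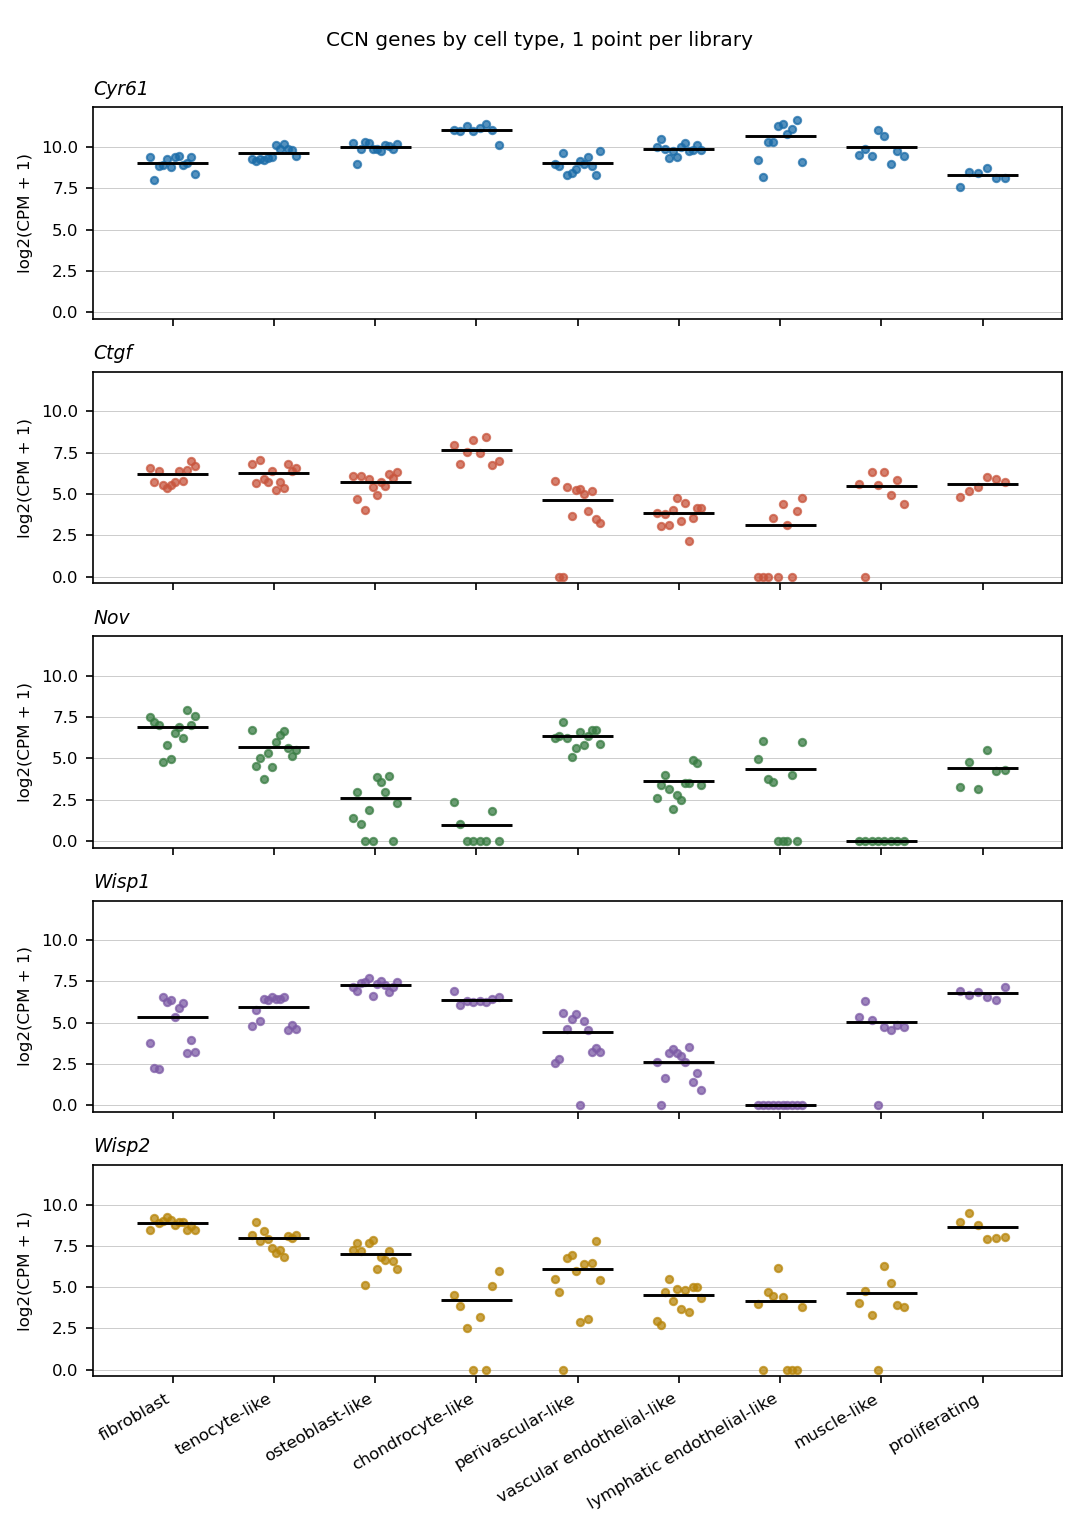
CPM of the 5 CCN genes in each cell type, as log2(CPM + 1); each point is 1 library with at least 10 cells of the type and the line is the mean CPM on the same scale. *Cyr61* peaks in chondrocyte-like cells, *Nov* and *Wisp2* in fibroblasts and *Wisp1* in osteoblast-like cells, and 10 of 10 lymphatic endothelial-like sums hold no *Wisp1*.

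*Cyr61*, an integrin ligand that promotes adhesion, angiogenesis and cartilage differentiation, was present in every named stromal type. Chondrocyte-like cells ranged from 1138 CPM (lowest of 8 libraries) through a median of 2102 to 2704 CPM, against 262, 505 and 715 CPM in the fibroblasts of 12 libraries. The groups did not overlap, and the difference was 2.19 on the log2 scale (SE 0.21, edgeR adjusted p = 9.94e-16, higher in 8 of 8 libraries). Osteoblast-like cells lay at 497 to 1267 CPM (median 1017) and were higher than the fibroblasts of their own library in 12 of 12 cases (log2 fold change 0.90, SE 0.19, edgeR adjusted p = 3.12e-05). Both endothelial types were higher too. Vascular endothelial-like cells had 635 to 1422 CPM (median 924) and exceeded fibroblasts in 12 of 12 libraries (log2 fold change 0.67, SE 0.19, edgeR adjusted p = 9.38e-04). It was 0.48, under the fold limit, without the library labelled peak replicate 1 and likewise 0.48 without a filter on low counts. Lymphatic endothelial-like cells spread from 289 to 3239 CPM (median 1509, 10 libraries), and 8 of 10 exceeded fibroblasts (log2 fold change 1.09, SE 0.20, edgeR adjusted p = 3.60e-06). Their sums rest on 11 to 34 cells a library. Tenocyte-like cells, at 576 to 1143 CPM, were higher by 0.64 (SE 0.18, edgeR adjusted p = 0.00554, 11 of 12 libraries), a call lost with the CCN genes allowed in clustering (0.28) and at Leiden resolution 0.5 (0.49). The muscle-like call (0.56, SE 0.22, edgeR adjusted p = 0.0378) was lost without any 1 of 6 libraries (peak 1, resolved 1 and 3, resolving 2, rest 2 and 3), with values of 0.42 to 0.54, and also without a filter on low counts (0.34), without the highest doublet scores (0.51) and with the CCN genes in clustering (0.46).

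Lower *Cyr61* was seen in 1 type. Proliferating cells had 194 to 428 CPM (median 316, 6 libraries), below their fibroblasts in 6 of 6 libraries (fell by 0.91 on the log2 scale, SE 0.24, edgeR adjusted p = 0.00167). This call was lost at Leiden resolution 0.5, at -0.30 (SE 0.24, edgeR adjusted p = 0.326). Perivascular-like cells, at 313 to 869 CPM, overlapped fibroblasts (log2 fold change -0.22, SE 0.19, edgeR adjusted p = 0.349). *Cyr61* is also an immediate early gene that tissue digestion can induce, so the summed level of 20 dissociation and immediate early genes is given beside it. That sum was 20181 to 34228 CPM in fibroblasts. Among the types called higher in *Cyr61* it was 33785 to 70172 CPM in muscle-like, 28095 to 54932 in vascular endothelial-like, 24828 to 47317 in osteoblast-like, 19066 to 44992 in tenocyte-like, 11768 to 45240 in lymphatic endothelial-like and 15876 to 38205 in chondrocyte-like cells. It was 24334 to 42456 CPM in perivascular-like cells, where *Cyr61* was not called, and 11357 to 16052 in proliferating cells. In single genes of the list, 9 of 20 were called higher and 1 lower in vascular endothelial-like cells (54.3% of all genes called either way), 4 and 5 in chondrocyte-like cells (49%), and 0 and 16 in proliferating cells (27.2%). The part of digestion in the *Cyr61* levels was not tested.

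*Ctgf*, which binds TGF-beta and BMP proteins and supports matrix production, was called higher than in fibroblasts in cartilage cells alone among the 8 types. Chondrocyte-like cells had 110 to 354 CPM (median 182, 8 libraries), against 40.4 to 125 CPM (median 68.3) in fibroblasts. They exceeded the fibroblasts of the same library in 8 of 8 cases, although the ranges overlap (log2 fold change 1.66, SE 0.17, edgeR adjusted p = 7.69e-14). Vascular endothelial-like cells held 3.51 to 26.0 CPM, below every fibroblast library (fell by 2.62 on the log2 scale, SE 0.20, edgeR adjusted p = 6.61e-21). Lymphatic endothelial-like cells held 0 to 25.7 CPM (fell by 3.70, SE 0.49, edgeR adjusted p = 6.27e-10), and perivascular-like cells were lower in 12 of 12 libraries (fell by 1.51, SE 0.22, edgeR adjusted p = 1.17e-08). Muscle-like cells fell by 1.17 (SE 0.34, edgeR adjusted p = 0.00375). Smaller differences stood near the fold limit. Osteoblast-like cells fell by 0.56 (SE 0.16, edgeR adjusted p = 0.00221), a call lost in 5 alternatives: thinned to 2000 UMIs (-0.27), at Leiden resolution 0.5 (-0.33), with total-count scaling (-0.48), with RLE factors (-0.49) and in DESeq2 (-0.49). Proliferating cells fell by 0.54 (SE 0.20, edgeR adjusted p = 0.0297), a call lost without any 1 of 4 libraries (peak 2, resolved 1 and 2, rest 2) at -0.44 to -0.56, and with total counts (-0.41), thinned (-0.49) and in DESeq2 (-0.62). Tenocyte-like cells, at 36.5 to 132 CPM, were higher than fibroblasts in 6 of 12 libraries (log2 fold change 0.09, SE 0.14, edgeR adjusted p = 0.730).

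*Nov*, which binds integrins and Notch receptors, was highest on average in fibroblasts. Fibroblasts ranged from 26.6 to 247 CPM (median 125), and perivascular-like cells from 33.0 to 148 CPM (median 77.6). Perivascular-like cells were lower in 7 of 12 libraries (fell by 0.69, SE 0.23, edgeR adjusted p = 0.00998), and this call was lost with total-count scaling and in DESeq2, both at -0.49. Cartilage and bone cells held next to none. The chondrocyte-like sums of 8 libraries held 0 to 4.16 CPM (fell by 6.00, SE 0.55, edgeR adjusted p = 4.45e-16), and the value was -6.92 without rest replicate 1. Osteoblast-like cells had 0 to 14.2 CPM (fell by 4.67, SE 0.31, edgeR adjusted p = 5.94e-23). The muscle-like sums of 8 libraries held 0 UMIs in 731115 (1 UMI was counted over all 266 cells), so with a floor of 3 counts over these libraries *Nov* was at least 38.9-fold lower there than in their fibroblasts (160 CPM). Vascular endothelial-like cells had 2.81 to 29.5 CPM (fell by 3.46, SE 0.26, edgeR adjusted p = 1.26e-20), lymphatic endothelial-like cells fell by 3.13 (SE 0.50, edgeR adjusted p = 1.74e-07), and proliferating cells fell by 2.12 (SE 0.30, edgeR adjusted p = 1.54e-08). Tenocyte-like cells lay between, at 12.5 to 103 CPM (fell by 1.01, SE 0.18, edgeR adjusted p = 9.43e-06, lower in 11 of 12 libraries).

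*Wisp1*, which promotes osteoblast differentiation, was highest on average, among the named types, in bone cells. Osteoblast-like cells had 99.0 to 207 CPM (median 157), all 12 above the highest fibroblast library (3.66 to 95.1 CPM, median 27.0). The log2 fold change was 2.40 (SE 0.22, edgeR adjusted p = 1.90e-15). Chondrocyte-like cells stood at 67.2 to 119 CPM (median 79.1) and were called higher by 1.79 (SE 0.30, edgeR adjusted p = 2.66e-07), above their fibroblasts in 6 of 8 libraries. The gap differed by suffix run. It was 67.2 to 119 against 3.66 to 12.8 CPM in fibroblasts in suffixes 1 to 3, and 86.7 to 91.7 against 39.8 to 71.4 in 7 to 9. In suffixes 4 to 6 the ranges overlapped, at 74.6 to 79.8 against 74.9 to 95.1 CPM. Proliferating cells had 82.8 to 143 CPM (log2 fold change 0.98, SE 0.26, edgeR adjusted p = 0.00209, higher in 6 of 6). The tenocyte-like call (0.91, SE 0.22, edgeR adjusted p = 8.83e-04, 11 of 12 libraries) was lost in 4 alternatives: with the CCN genes allowed in clustering (-0.24), without upper limits on genes and UMIs (0.42), without a block (0.65) and with the replicate block (0.70, edgeR adjusted p = 0.0718). The tenocyte-like clusters differed: the one led by *Angptl7* (1786 of 3189 cells) held 24.3 ± 12.1 CPM (SD, n = 12) and exceeded fibroblasts in 5 of 12 libraries, while the one led by *C1qtnf3* (1158 cells, 91.0% of them from suffixes 7 to 9) held 91.1 ± 26.4 CPM (n = 7). Endothelial cells held little or none. Vascular endothelial-like cells held 0 to 10.53 CPM (fell by 2.99, SE 0.42, edgeR adjusted p = 2.36e-09), and lymphatic endothelial-like cells 0 UMIs in 744414, which puts them at least 10.9-fold lower than fibroblasts (44.02 CPM). Neither muscle-like cells (0 to 78.7 CPM, log2 fold change 0.54, SE 0.65, edgeR adjusted p = 0.536) nor perivascular-like cells (0 to 46.3 CPM, log2 fold change -0.86, SE 0.38, edgeR adjusted p = 0.0532) passed the test. Perivascular-like cells did pass without peak replicate 1 (-0.89), resolved replicate 3 (-0.88) or resolving replicate 1 (-1.02), with the replicate block (-0.99), without a filter on low counts (-0.97), without the highest doublet scores (-0.94) and with the CCN genes in clustering (-0.89).

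*Wisp2*, which inhibits the growth of smooth muscle and fat precursor cells, was highest on average in fibroblasts. They ranged from 348 to 611 CPM (median 475). Proliferating cells, at 238 to 705 CPM, did not pass the test (log2 fold change -0.43, SE 0.26, edgeR adjusted p = 0.183), but did without the highest doublet scores (-0.65). Tenocyte-like cells were lower in 12 of 12 libraries at 114 to 498 CPM (fell by 0.90, SE 0.20, edgeR adjusted p = 2.32e-04), a call lost with the CCN genes allowed in clustering (-0.048), at Leiden resolution 0.5 (-0.45) and without upper limits (-0.56). Osteoblast-like cells had 34.3 to 230 CPM, every one below the lowest fibroblast library (fell by 1.96, SE 0.21, edgeR adjusted p = 4.34e-13). Perivascular-like cells had 0 to 225 CPM (fell by 2.99, SE 0.25, edgeR adjusted p = 4.43e-18). The other types were near the level of immune-like cells. Vascular endothelial-like cells held 21.7 ± 11.9 CPM (SD, n = 12), muscle-like cells 24.3 ± 24.6 (n = 8), chondrocyte-like cells 17.8 ± 20.9 (n = 8) and lymphatic endothelial-like cells 16.6 ± 21.7 (n = 10), where immune-like cells, assumed here to lack the gene, held 23.4 ± 26.5 CPM (n = 3). Their log2 fold changes were -4.66 (SE 0.26), -4.52 (SE 0.46), -4.61 (SE 0.36) and -5.40 (SE 0.45), with edgeR adjusted p = 8.41e-29, 6.23e-14, 1.17e-19 and 2.54e-18. The lymphatic value was -6.05 without peak replicate 2.

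**Figure D2:**
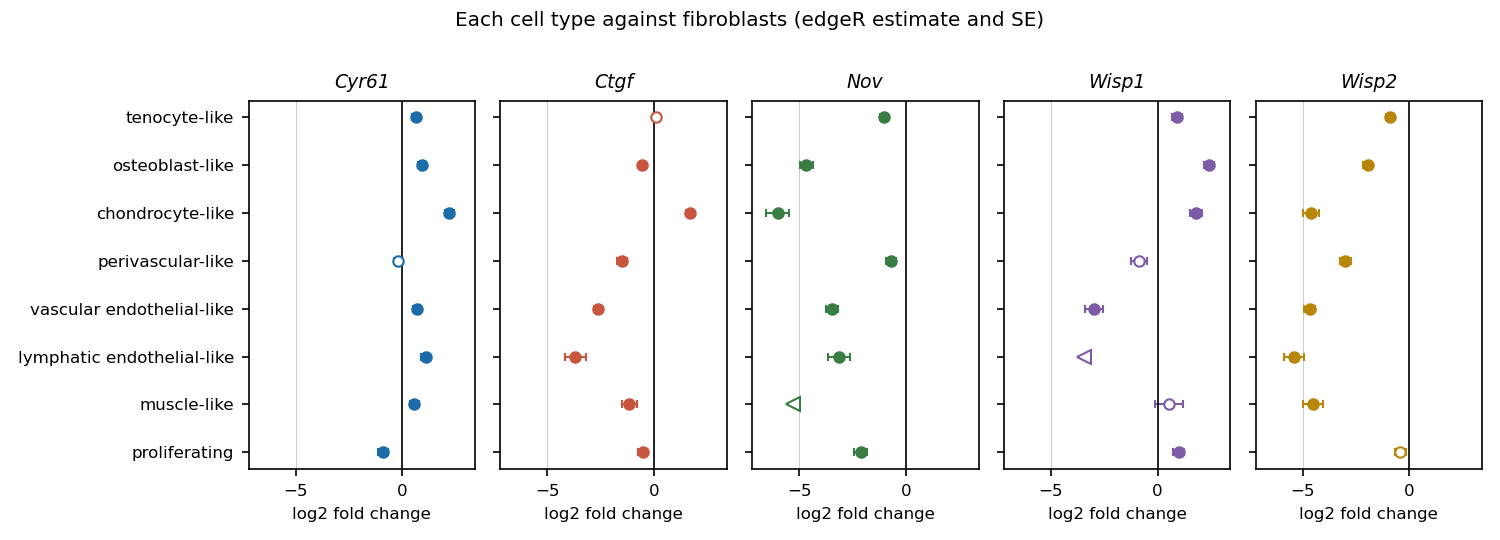
Log2 fold change of each CCN gene in each cell type against fibroblasts, with bars of 1 SE worked out from the edgeR F statistic. Filled points passed the test, open points did not, and open triangles are upper limits where a type held 0 UMIs. *Nov* and *Wisp2* lie left of 0 in all 8 types, while *Cyr61* lies right of 0 in 6.

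Neighbours in the order of mean CPM were compared within libraries, over 40 pairs in all (two-sided exact permutation test by sign flips, Benjamini-Hochberg adjusted over the 40). In 4 of them the types differed at an adjusted p under 0.05. *Cyr61* in tenocyte-like cells (788 ± 209 CPM, SD, n = 12) exceeded fibroblasts (530 ± 148) in 11 of 12 libraries (exact p = 0.00146, adjusted 0.0244). *Wisp1* in tenocyte-like cells (60.2 ± 30.8 CPM) likewise exceeded fibroblasts (39.4 ± 34.9) in 11 of 12 libraries (exact p = 0.00146, adjusted 0.0244). In vascular endothelial-like cells it exceeded lymphatic endothelial-like cells in 10 of 10 (exact p = 0.00195, adjusted 0.0244). The lymphatic sums held 44952 to 127517 UMIs each and no *Wisp1*, and 3 counts over them together would be 4.03 CPM. The vascular mean was 5.11 CPM, so this pair cannot tell a lower level from lower depth. *Wisp2* in tenocyte-like cells (247 ± 105 CPM) exceeded osteoblast-like cells (129 ± 60.4) in 11 of 12 (exact p = 0.00244, adjusted 0.0244). At the top of the *Cyr61* order, chondrocyte-like cells (2103 ± 461 CPM, n = 8) and lymphatic endothelial-like cells (1630 ± 1002, n = 10) share 7 libraries and did not pass (exact p = 0.156, adjusted 0.284). Chondrocyte-like cells were higher in 5 of the 7, and in 6 of 7 with TMM factors (means 2533 and 1283). Muscle-like, osteoblast-like and vascular endothelial-like cells followed at 1023 ± 534, 1021 ± 212 and 965 ± 219 CPM, and neither the first pair (adjusted exact p = 0.895) nor the second (0.830) passed. *Ctgf* in chondrocyte-like cells (205 ± 93.3 CPM) exceeded tenocyte-like cells (75.4 ± 31.7) in 8 of 8 libraries. This gave an exact p of 0.0078, the lowest that 8 libraries allow, and an adjusted exact p of 0.0521. Pairs sharing 7 libraries or fewer could not pass beside the p values of the other pairs, whatever their values. The chondrocyte-like and lymphatic endothelial-like pair of *Cyr61* is one of these. *Nov*, higher in tenocyte-like than in proliferating cells in 6 of 6, gave an exact p of 0.03125 (adjusted 0.0962).

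The share of cells with at least 1 UMI followed the sums in some types and not in others. *Cyr61* was found in 95.9% of chondrocyte-like cells (95% Wilson interval 93.0% to 97.6%, median depth 12534 UMIs) and in 50.9% of fibroblasts (49.97% to 51.81%, median 5559 UMIs). Immune-like cells, taken as a guide to free RNA, which was not measured, had 12.5% (7.59% to 19.9%, median 3720 UMIs). Only libraries of suffixes 4 to 9 held enough of these cells for a sum. Shares move with depth, so cells were also thinned to 2000 UMIs, which gave 85.4%, 35.1% and 7.55% and left out 0, 208 and 6 shallower cells. *Wisp1* was found in 41.3% of osteoblast-like cells (38.72% to 43.95%) and 20.7% after thinning (17 left out), against 1 of 112 immune-like cells. *Wisp2* was found in 56.5% of fibroblasts (55.6% to 57.4%) and in 39.9% after thinning, against 8.93% of immune-like cells (4.92% to 15.7%). Other shares did not follow the sums. *Cyr61* was in 68.8% of proliferating cells (35.7% thinned), although its sums were called lower there than in fibroblasts. *Wisp1* was in 53.8% of chondrocyte-like and 53.1% of proliferating cells, above osteoblast-like cells, but in 15.0% and 16.4% after thinning. *Wisp2* was in 74.3% of proliferating cells and 45.2% after thinning, above fibroblasts, although its sums were lower in 5 of 6 libraries. The intervals cover counting error only.

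*Wisp3* (ENSMUSG00000062074, Ccn6, minus strand of chromosome 10, 39150970 to 39163794, overlapping *Tube1* on the other strand), whose human counterpart is mutated in a progressive cartilage disease, was found mostly in chondrocyte-like cells. All 314 chondrocyte-like cells together held 347 UMIs (53.5 to 187 CPM, median 79.2, in the 8 libraries with enough cells), whereas 11271 fibroblasts held 33 UMIs and 1768 vascular endothelial-like cells held 0. It is not among the 5 genes chosen, and no test is given.

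Within fibroblasts the family split again. Clusters come from the same cells, so their levels are a description without a test. *Ctgf* was highest in the lining cluster (242 ± 85.6 CPM, SD, n = 12; above the other fibroblasts in 12 of 12 libraries) and next in a small cluster led by *Cytl1*, *Mfi2* and *Tnfrsf11b* (149 ± 69.8, n = 11, above in 11 of 11). *Cyr61* peaked in a cluster led by *Nppc*, *Vipr2* and *Egfl6*, at 1276 ± 246 CPM in 12 libraries, and was lowest in the cluster led by *Ifi205*, *Ccl7* and *Ccl2*, at 194 ± 91.7 CPM. The *Ifi205* cluster was also low in *Ctgf* (16.8 ± 9.04 CPM). *Nov* was highest in the sublining cluster with *Pi16* and *Dpp4* (254 ± 101 CPM, above the rest in 12 of 12) and lowest in the *Cytl1* cluster (13.2 ± 13.5, n = 11). *Wisp1* was highest in the cluster led by *Cxcl5*, *Sfrp1* and *Saa3* (112 ± 24.8 CPM), which was large enough in 6 libraries and was above the rest in 6 of 6, and lowest in the sublining cluster (1.61 ± 3.21). *Wisp2* peaked in the cluster led by *Agt*, *Serpina3m* and *C4b* (713 ± 152 CPM, above in 12 of 12) and was lowest in the *Cytl1* cluster (113 ± 133). Suffixes 4 to 6 gave 88.0% of the cells of the *Cxcl5* cluster. A tenocyte-like cluster of 245 cells led by *Ptx4*, *Fam159b* and *Chodl* (the last also in the muscle marker list) held much *Cyr61* (1379 ± 618 CPM) and *Wisp1* (179 ± 63.5) and little *Wisp2* (33.1 ± 64.9, n = 12).

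**Figure D3:**
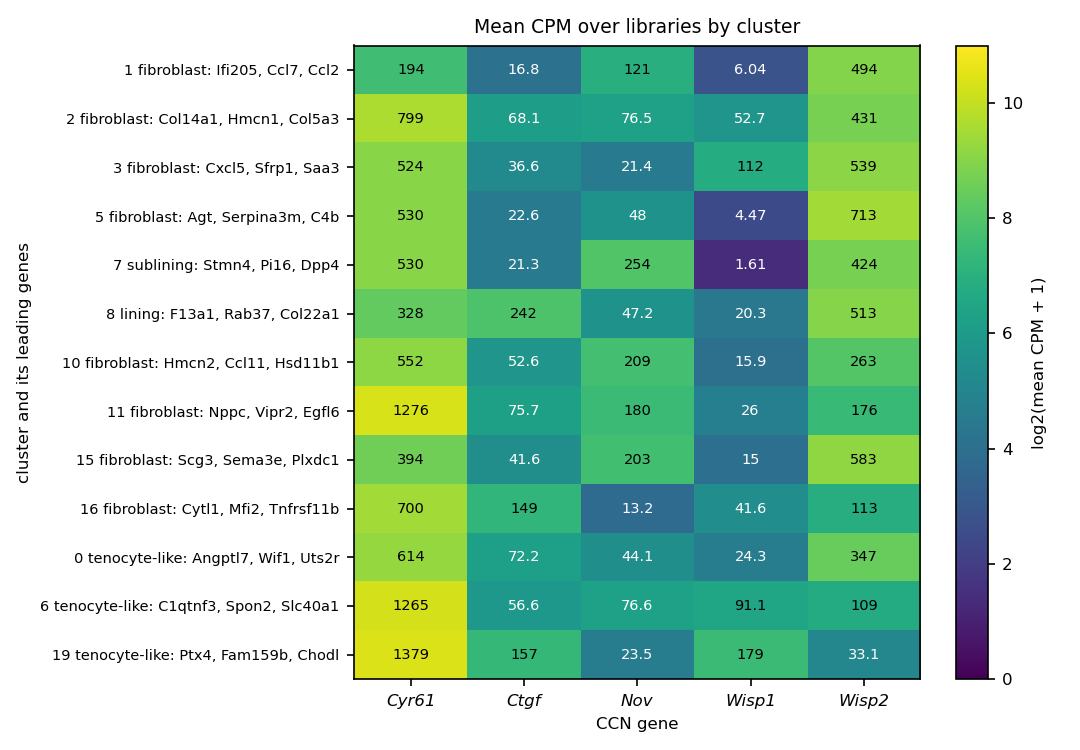
Mean CPM over libraries of each CCN gene (columns) in the 10 fibroblast and 3 tenocyte-like clusters (rows, with 3 leading genes each), coloured by log2(mean CPM + 1). *Ctgf* is highest in the lining cluster (242), *Nov* in the sublining cluster (254) and *Wisp2* in the *Agt* cluster (713).

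The lining layer faces the joint cavity and the sublining surrounds its vessels, and markers named 1 cluster of each. Sublining here means the cluster with *Pi16* and *Dpp4* alone, out of 11271 fibroblasts, and clusters given neither name were not compared. Mean *Ctgf* in those ran from 16.8 CPM (*Ifi205* cluster) to 149 CPM (*Cytl1* cluster), so the values below are for 2 clusters and not for whole layers. Lining (1107 cells) had all 5 of its markers (among them *Prg4*, lubricin) in 29.4% to 99.5% of cells, and sublining (1144 cells) all 5 of its own in 44.4% to 97.8%. Of 5485 genes tested 27% were called, and of the 4 members tested 3 were. *Ctgf* in lining cells ranged from 81.2 through 256 to 376 CPM (lowest, median and highest of 12 libraries) and in sublining cells from 0 through 25.5 to 44.7 CPM. The ranges did not overlap, and *Ctgf* was higher in the lining of 12 of 12 libraries (log2 fold change 3.63, SE 0.18, edgeR adjusted p = 8.54e-14). *Nov* went the other way. It ranged from 20.7 through 46.4 to 88.2 CPM in lining and from 83.9 through 293 to 373 CPM in sublining cells, and was lower in the lining in 12 of 12 (fell by 2.48, SE 0.13, edgeR adjusted p = 1.45e-13). *Cyr61* was lower in the lining in 11 of 12 libraries (median 337 against 508 CPM, fell by 0.67, SE 0.16, edgeR adjusted p = 0.00139), so that it and *Ctgf*, both known as YAP targets, differed in opposite directions. *Wisp2* did not pass (medians 521 and 395 CPM, log2 fold change 0.22, SE 0.20, edgeR adjusted p = 0.423). *Wisp1* fell under the filter on low counts, with 159 UMIs in lining and 8 in sublining cells. By cells with a UMI, *Ctgf* was in 59.3% of lining (56.4% to 62.2%, median depth 7524 UMIs) and 8.22% of sublining cells (6.76% to 9.95%, median 5024), or 31.4% and 3.29% after thinning. *Nov* was in 23.6% (21.2% to 26.2%) and 48.0% (45.1% to 50.9%), or 9.48% and 29.2% after thinning, and *Wisp1* in 0.612% of sublining cells (0.297% to 1.26%), or 0.267%. Thinning left out 20 lining and 19 sublining cells.

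**Figure D4:**
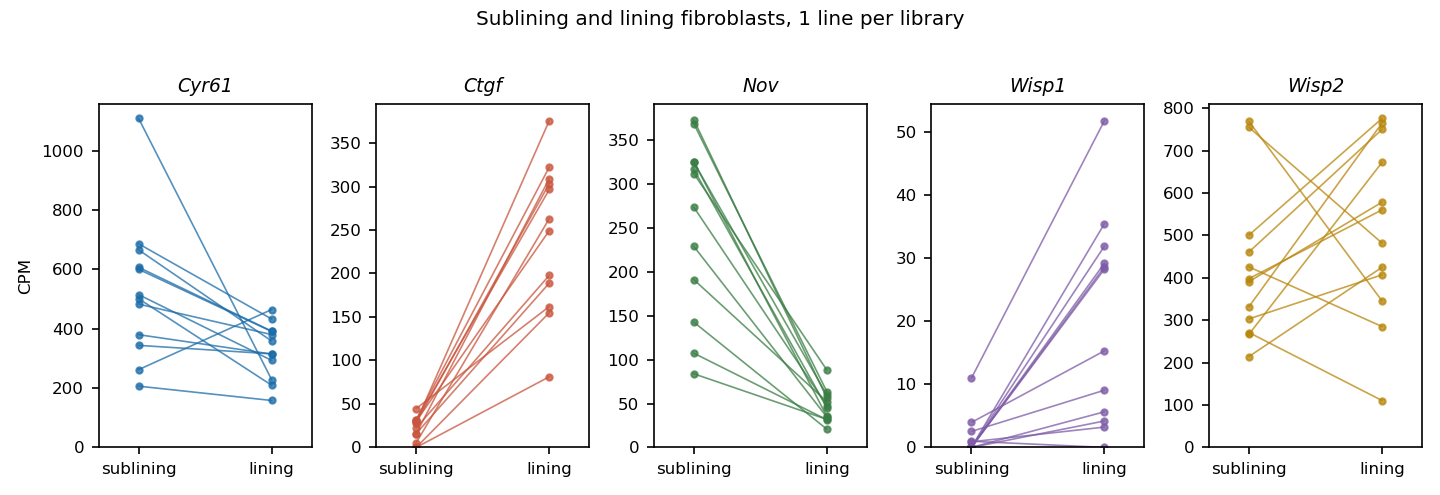
CPM of each CCN gene in sublining and lining fibroblasts, with 1 line joining the values of each of 12 libraries. Every *Ctgf* line rises towards the lining and every *Nov* line falls, while *Wisp2* lines cross.

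Other cell types' markers in both subsets were compared over their whole lists. Chondrocyte markers, summed over 7 genes, were at 56.6 to 201 CPM in lining and 10.48 to 142 in sublining cells. Osteoblast markers (8 genes) were at 231 to 1127 and 20.97 to 206 CPM, and perivascular markers (8 genes) at 171 to 438 and 10.98 to 62.9 CPM, so both sums were higher in the lining without overlap. Schwann markers (6 genes) were higher too, at 56.5 to 300 against 0 to 43.9 CPM. Vascular endothelial markers (7 genes) went the other way without overlap, at 1147 to 2603 CPM in lining and 3154 to 4633 in sublining cells, and immune markers (7 genes) reached 13.0 and 35.8 CPM at most. Their part in the *Ctgf* difference was not tested.

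Genes of the pathways around the family were counted by lists chosen with earlier results of these data known. Between lining and sublining, 27% of all 5485 genes tested were called, and the counts below stand beside that share. Of 20 YAP/TEAD targets besides the members, 10 were tested between lining and sublining, 1 rose and 5 fell, with a median log2 fold change of -0.50 against -0.0042 over all genes. *Gadd45a*, a DNA damage response gene, rose (152 ± 68.4 against 58.2 ± 27.3 CPM, log2 fold change 1.49, SE 0.16, edgeR adjusted p = 4.90e-08), and *Ccdc80*, a matrix adhesion gene, fell by 1.65 (SE 0.10, edgeR adjusted p = 2.72e-12), as did *Tgfb2* by 1.54 (SE 0.17, edgeR adjusted p = 1.65e-07). None of 8 Hippo pathway effectors tested (of 15) was called. Of the receptors for CCN proteins, 8 of 13 were tested, 5 rose and 1 fell. *Itga6* rose by 4.29 (SE 0.24), but it is a lining marker and helped to name the cluster. *Sdc4*, a heparan sulfate proteoglycan, was at 538 ± 201 CPM in lining and 167 ± 43.2 in sublining cells (log2 fold change 1.65, SE 0.15, edgeR adjusted p = 2.66e-09), and *Lrp6*, a Wnt coreceptor, fell by 0.52 (SE 0.18, edgeR adjusted p = 0.0203). Of 12 TGF-beta response genes, 10 were tested, 4 rose and 4 fell. *Skil*, a repressor of SMAD signalling, was higher by 0.76 (SE 0.13, edgeR adjusted p = 7.83e-05), whereas *Postn*, periostin, fell by 3.71 (SE 0.24, edgeR adjusted p = 1.04e-11) and *Timp3* fell by 2.80 (SE 0.14, edgeR adjusted p = 8.16e-14). Of 20 dissociation and immediate early genes 4 fell and none rose, among them *Jun* (fell by 1.19, SE 0.14, edgeR adjusted p = 1.87e-07) and *Fos* (fell by 0.74, SE 0.15, edgeR adjusted p = 4.21e-04). None of 12 Wnt/beta-catenin targets passed the filter there.

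Against fibroblasts the same lists went several ways. In osteoblast-like cells, where *Wisp1* was high, 3 of 12 Wnt/beta-catenin targets were tested and none was called, and 7 of 12 TGF-beta response genes rose and 3 fell (29.5% of all genes called). In chondrocyte-like cells, where *Cyr61* and *Ctgf* were high, 4 of 17 YAP/TEAD targets tested rose and 7 fell (median -0.01 against -0.11 over all genes). There 49% of all genes were called. Of the same 17 tested, 7 rose and 7 fell in vascular endothelial-like cells (54.3% of all genes called), and 4 rose and 1 fell in tenocyte-like cells (14.9%). For receptors, levels are given for genes picked after their values were seen, without a test: *Itga6* was at 178 ± 28.8 CPM in vascular endothelial-like cells (SD, n = 12) and 17.6 ± 10.7 in fibroblasts, *Sdc4* at 1298 ± 268 in chondrocyte-like cells (n = 8) and 315 ± 122 in fibroblasts, *Notch1* at 83.1 ± 9.46 in vascular endothelial-like cells and 3.32 ± 1.76 in fibroblasts, and *Lrp1* at 412 ± 29.0 in fibroblasts and 28.3 ± 8.69 in vascular endothelial-like cells.

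Between the stages named on the labels no member was called in fibroblasts, and no gene of 11796 was (0%) in the peak, 0% in the resolving and 0% in the resolved comparison with rest by edgeR. At an unadjusted p under 0.05 there were 72, 100 and 74 genes, and DESeq2 called 0, 1 and 1. When known shifts were planted in simulated data, the peak against rest test found 3% of those with a log2 fold change of 1. It found 97% of those with a log2 fold change of 3. The lack of calls therefore cannot tell stage differences near a log2 fold change of 1 from none. The simulated shares are over randomly drawn genes and not over the members. For *Wisp1* (SE 1.14 to 1.18) and *Nov* (SE 0.75), larger differences could also go uncalled. *Cyr61* was at 684, 608 and 482 CPM in the libraries labelled rest (replicates 1, 2 and 3), 262, 439 and 527 at peak, 471, 689 and 677 in resolving and 480, 715 and 328 in resolved libraries. The groups overlap (peak against rest log2 fold change -0.49, SE 0.32). *Ctgf* was at 94.6, 40.4 and 54.2 CPM at rest, 53.2, 44.9 and 87.4 at peak, 82.4, 52.3 and 125 in resolving and 45.5, 84.3 and 102 in resolved libraries (resolving against rest 0.47, SE 0.41). *Wisp2* was at 348, 611 and 482 CPM at rest, 586, 525.8 and 353 at peak, 469, 441 and 422 in resolving and 504, 488 and 356 in resolved libraries, with log2 fold changes from -0.14 to 0.04 and an SE of 0.26. No member's CPM stood apart from rest in any of the 3 comparisons (0 of 5 each), where 3.11% of genes did at peak, 4.47% in resolving and 2.94% in resolved libraries. The adjusted p was 0.999 to 1 for every member.

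*Nov* and *Wisp1* varied most between libraries of 1 label. *Wisp1* was at 12.8, 74.9 and 71.4 CPM at rest, 3.74, 82.9 and 8.21 at peak, 3.66, 39.8 and 14.3 in resolving and 95.1, 57.4 and 8.41 in resolved libraries, so the SE of its log2 fold changes was 1.14 to 1.18. *Nov* was at 184, 55.2 and 73.7 CPM at rest, 146, 29.8 and 247 at peak, 131, 91.9 and 131 in resolving and 26.6, 119 and 190 in resolved libraries (SE 0.75). Values were closer within runs of barcode suffixes, and so were other sums in fibroblasts. The dissociation genes summed to 20181 to 22940 CPM in suffixes 4 to 9 and 25535 to 34228 in the others, and the fibroblast markers to 17705 to 28297 and 45350 to 70069 CPM. Their part in the member values was not tested. *Wisp1* lay at 3.66 to 12.8 CPM in suffixes 1 to 3, 74.9 to 95.1 in 4 to 6, 39.8 to 71.4 in 7 to 9 and 8.21 to 14.3 in 10 to 12. The same split stood within the lining cluster, at 0 to 4.20, 29.2 to 51.9, 28.3 to 35.5 and 5.66 to 15.3 CPM, but not in osteoblast-like cells, at 122 to 169, 99.0 to 207, 154 to 182 and 116 to 176 CPM. *Nov* was lowest in suffixes 4 to 6, at 26.6 to 55.2 CPM in all fibroblasts, 83.9 to 143 in the sublining and 20.7 to 31.96 in the lining cluster, where the other runs had 73.7 to 247, 191 to 373 and 34.6 to 88.2 CPM. *Ctgf* in the lining was also lowest there, at 81.2 to 162 CPM against 189 to 376 in the other runs. The make-up of the fibroblasts moved too: the *Cxcl5* cluster was 39.7% to 50.7% of fibroblasts in suffixes 4 to 6 and at most 7.92% elsewhere, and the sublining cluster 2.11% to 2.83% in suffixes 4 to 6 and 4.13% to 25.1% elsewhere. No test was made between suffix runs, and what the runs stand for was not tested.

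**Figure D5:**
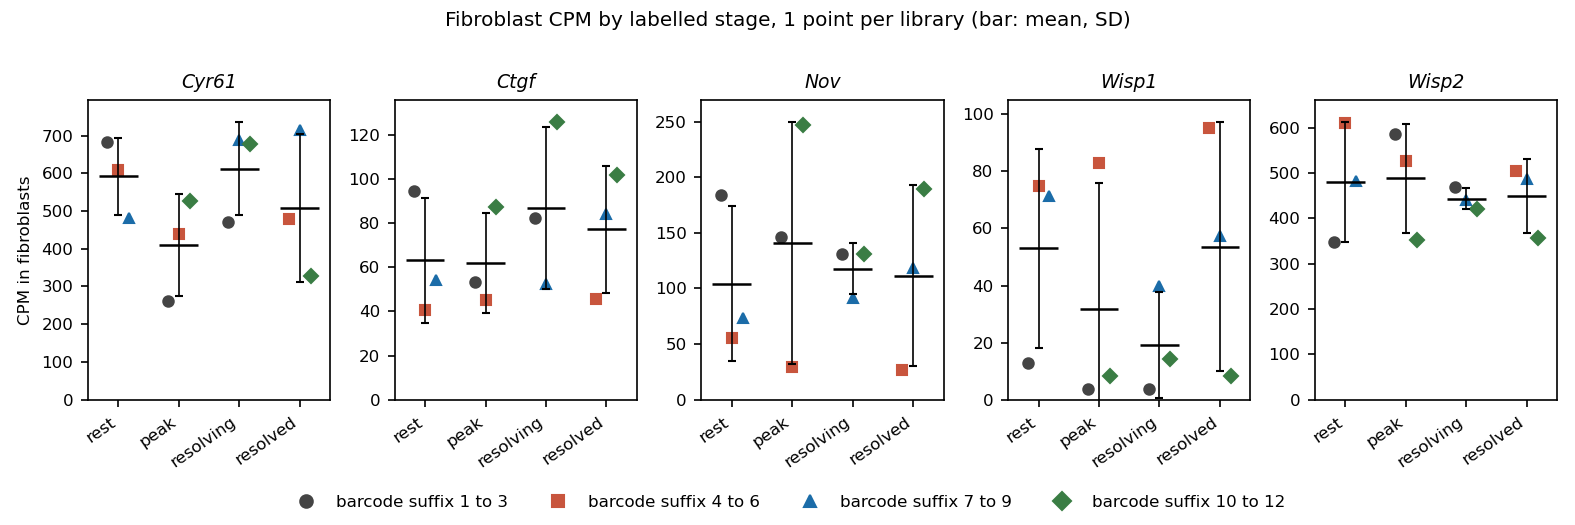
Fibroblast CPM of each CCN gene by stage label, with 1 point per library, a line for the mean and bars of 1 SD (n = 3, drawn down to 0 at most); the marker gives the run of barcode suffixes. The labels overlap for all 5 genes, while *Wisp1* separates suffixes 4 to 9 (39.8 to 95.1) from the others (3.66 to 14.3).

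The members were not one group across types. Over 98 sums of a named type in a library, as log2(CPM + 1), Pearson's r between members ran from -0.26 (*Cyr61* and *Nov*) to 0.56 (*Ctgf* and *Wisp1*), and *Cyr61* with *Ctgf* gave 0.24. These sums share libraries and depth, so r is a description. The genes most like *Wisp1* were *Gpc1* (r = 0.85), *Bgn* (0.84) and *Plod2* (0.83), those most like *Wisp2* were *Lox* (0.82), *Gas1* (0.80) and *Pdgfc* (0.78), and *Nov* was closest to *Crip1* (0.76), *Ebf2* (0.74) and *Adam33* (0.73). *Cyr61* was closest to *Socs2* (0.78), *Lmcd1* (0.71) and *Tmem214* (0.66), and *Ctgf* to *Islr* (0.74), *Aff3* (0.73) and *Plod2* (0.71).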

How the data were processed

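The deposited files held UMI counts per gene and cell for each of 12 libraries, which the authors made with Cell Ranger against mm10, per the labels with the 10x Genomics 3' kit. The median of 5358 UMIs per deposited cell was the same in every library. Whether depth was evened out between libraries before deposit was not tested, so the counts are not called raw. Whether reads were assigned by strand is not given in the sources used here. Cells with over 500 and under 5000 genes, over 500 UMIs and under 20000 UMIs (25000, 30000 or 40000 in some libraries) were kept. With scanpy 1.11.5, counts were scaled to 10000, and 2000 variable genes without the CCN genes, 30 principal components and 20 neighbours entered Leiden clustering (resolution 1, seed 1). A cluster was named when at least 4 of a type's markers were in 20% of its cells at a log2 fold of 1 or more, and called fibroblast with 5 of 7 markers in 30%. Scrublet marked 56 doublets (0.279%), which does not show that the caller worked, and cells were kept. UMIs were summed per library and type where a library had 10 cells or more, and types with at least 6 libraries were tested in edgeR 4.0.16 (TMM, quasi-likelihood test, Benjamini-Hochberg adjusted p under 0.05, log2 fold change over 0.5) on R 4.3.3, with the library as a block between types and no block between stages. DESeq2 1.42.0 was an alternative. CPM were computed from the sums without TMM factors. Scripts were tested on simulated data. The pools of 3 animals are the replicates. Named genes were the members, Wisp3, the 3 genes most correlated with each member, and in each list the called genes with the largest (2 at most) log2 fold change each way between lining and sublining. Some named genes and 1 unnamed cluster are not reported here. Members and lists were chosen with earlier results of these data known. Replicate numbers were not taken to pair libraries, since the correlations of same-numbered libraries ran from -0.54 to 0.69. Positions come from GENCODE M21, which held 27645 of 27998 gene identifiers, and the promoter from RefSeq (GRCm38.p6), where the windows of Ctgf, Nov, Wisp1 and Wisp2 were not used here.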

Additional observations from a re-analysis of the deposited data

Results flagged for a closer look

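In 18 sets of 6 to 10 libraries examined (a member in a type), a library stood apart from the others of its set by Dixon's criterion in 2, and chance alone flags about 1 in 20. *Cyr61* in chondrocyte-like cells was lowest in resolved replicate 2, at 1138 CPM, where the next library had 1973 CPM (gap 0.533 of the range, critical value 0.526, n = 8), from 149 UMIs in 17 cells. *Wisp2* in lymphatic endothelial-like cells was highest in peak replicate 2, at 71.4 CPM against 25.0 CPM in the next (gap 0.650 of the range, critical value 0.466, n = 10), from 5 UMIs in 16 cells.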

How the results depend on the processing

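Of 960 values of members between types under alternatives, 913 kept their direction and call, 34 lost the call, 8 gained it and 5 turned, and all 92 between lining and sublining kept both. Member calls between types were 33 to 36 on leaving out 1 library (35 in the main analysis), with 3 in each case between lining and sublining. Replicate numbers did not pair the libraries, and with the replicate block member calls were 35 between types, 3 between lining and sublining and 0 between stages. The 35 were not the same calls, since *Wisp1* lost its call in tenocyte-like cells (0.70) and gained one in perivascular-like cells (-0.99). The turned values were *Wisp1* in muscle-like cells (-0.34 without a block, -0.057 with the replicate block), *Wisp2* in proliferating cells (0.080 at Leiden resolution 0.5), *Ctgf* (-0.16 without upper limits) and *Wisp1* (-0.24 with CCN genes in clustering) in tenocyte-like cells. The cause was not tested. Resolution 0.5 gave no sublining cluster and so no value for that comparison.

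Between stages, 0 members were called in 26 alternatives, and 54 of 390 values, none of them called, turned. With the barcode suffix run as a block, *Ctgf* was -0.25 and *Nov* -0.18 at peak, *Nov* -0.27, *Wisp1* -0.30 and *Wisp2* 0.0033 in resolved, and *Cyr61* -0.013, *Nov* -0.55 and *Wisp2* 0.084 in resolving libraries. At resolution 0.5, *Wisp1* was -0.25 and *Wisp2* 0.071 in resolved, and *Cyr61* -0.072 and *Wisp2* 0.13 in resolving libraries. With CCN genes in clustering, *Nov* was -0.022 and *Wisp1* -0.047 in resolved and *Cyr61* -0.054 in resolving libraries. With tenocyte-like, proliferating and unnamed cells added, the same 3 were -0.096, -0.032 and -0.018. *Ctgf* at peak was -0.12 thinned, -0.016 without the highest doublet scores, -0.039 with the replicate block and -0.026 by total counts. *Wisp1* in resolved libraries was -0.00025 with 6 libraries alone, -0.026 in DESeq2, -0.021 with RLE factors, -0.049 thinned, -0.0094 without a filter and -0.017 without upper limits.

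Leaving out 1 library gave -0.33 to 0.39 for *Ctgf*, -0.21 to 1.13 for *Nov* and -0.19 to 0.30 for *Wisp2* at peak. In resolved libraries it gave -0.49 to 0.0071 for *Cyr61*, -0.51 to 0.80 for *Nov*, -0.72 to 0.49 for *Wisp1* and -0.31 to 0.18 for *Wisp2*, and in resolving libraries -0.082 to 0.22 for *Cyr61*, -0.088 to 0.83 for *Nov* and -0.35 to 0.12 for *Wisp2*. For the calls that were lost between types it gave 0.42 to 0.62 for *Cyr61* in muscle-like, 0.48 to 0.68 for *Cyr61* in vascular endothelial-like and -0.70 to -0.44 for *Ctgf* in proliferating cells.

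Thinning to 2000 UMIs moved the share of cells with *Cyr61* to 85.4% of chondrocyte-like, 35.1% of fibroblast and 7.55% of immune-like cells, *Ctgf* to 31.4% of lining and 3.29% of sublining, *Nov* to 9.48% and 29.2%, *Wisp1* to 20.7% of osteoblast-like and 0.267% of sublining cells, and *Wisp2* to 39.9% of fibroblasts. It also lowered the genes called, over fewer genes tested, to 1972 in chondrocyte-like, 1951 in lymphatic, 2137 in muscle-like, 1438 in osteoblast-like, 2167 in perivascular-like, 1372 in proliferating, 801 in tenocyte-like and 2604 in vascular cells, and to 576 from 1479 between lining and sublining. Without a filter they were 4226, 2095 and 7795 in osteoblast-like, tenocyte-like and vascular cells and 3172 between lining and sublining. Total-count scaling moved the members' median by 0.49 in lymphatic, 0.22 in vascular, 0.20 in perivascular-like, 0.14 in muscle-like and proliferating and -0.17 in chondrocyte-like cells.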

Other observations

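Of the 3 clusters that took no name, 2 are described by pooled CPM over their cells, without a test. A cluster of 132 cells led by *Tnnc2*, *Acta1* and *Pvalb*, genes of mature muscle, held 73.4 CPM of *Cyr61*. A cluster of 24 cells led by *Sfrp5*, *Krt19* and *Msln* held 374 CPM of *Cyr61* and 90.8 CPM of *Wisp2*. Schwann-like cells, in 3 libraries, held 527 ± 453 CPM of *Cyr61* (SD, n = 3).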
